A study of Bos taurus with 32 samples.

Results

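The 10 genes EDN1, EDNRA, EDNRB, KDR, FLT1, VEGFA, ANGPT1, ANGPT2, TEK and NOS3 carry vascular signals of the endometrium. They were looked up by gene name among 15208 probes of a bovine Agilent array, with a single 60-base probe for each of 9 genes and none for VEGFA under its current symbol. The tissue came from non-lactating Japanese Black cows on Day 15 after estrus. Repeat breeder (RB) cows had failed to conceive after repeated insemination, and non-RB cows were labelled as normal. Caruncular (CAR) endometrium, where the placenta attaches, and the gland-rich intercaruncular (ICAR) endometrium were taken from the horn on the side of the corpus luteum (ipsilateral) and from the opposite horn (contralateral). There were 4 RB and 4 non-RB replicates in each of these 4 compartments, which made 32 single-colour arrays. The labels name no treatment and no engineered allele. By the study's methods, only the non-RB cows had been pregnant by these inseminations, and their pregnancies were ended with a prostaglandin F2α analogue before further estrous cycles and sampling. This history cannot be told apart from the group. The samples were whole endometrium. A replicate number within RB or within non-RB was taken to be the same cow in all compartments, which the labels do not state.

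Blood vessels of the endometrium grow, leak, contract and regress with the estrous cycle under these signals. Endothelin-1, the product of EDN1, constricts vessels through the smooth muscle receptor EDNRA, while EDNRB on endothelium is coupled to release of nitric oxide, which NOS3 makes. VEGFA drives endothelial growth through KDR and is also bound by FLT1, and the ligands ANGPT1 and ANGPT2 act on the endothelial receptor TEK.

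Levels are given as log2 of the background-subtracted intensity over the 75th-percentile intensity of its own array, so that 0 equals that percentile and a difference of 1 is a doubling. Levels of different probes cannot be compared, because each oligonucleotide binds with its own strength. "Well above background" is the call of the scanner software for a spot. Intervals and p-values come from limma, adjusted values are Benjamini-Hochberg over all probes tested, and exact tests permute the cows. With 4 against 4 cows the smallest exact p is 0.0286.

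Between 74.3 and 85.8% of probes per array were well above background, and the 75th percentile ran from 1165 to 4857 intensity units. The 2 arrays of slide 1 (non-RB replicate 2 of CAR contralateral and non-RB replicate 1 of ICAR contralateral) had uneven spots, with an SD of 1.32 and 0.869 among 100 GAPDH probes against a median of 0.153. The next highest were 0.536 in non-RB replicate 2 of ICAR ipsilateral, and 0.430 in non-RB replicate 4 and 0.395 in RB replicate 4 of CAR ipsilateral. Of the 8 slides, only slides 6 and 8 held both groups. Among 9 endothelial markers, 8 were well above background on all 32 arrays.

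Probe sequences are shown for the paired ligands ANGPT1 and ANGPT2, and for 2 probes that carry older gene names. For KDR the reading depends on which oligonucleotide is used, and VEGFA has no probe under its current symbol. The probe ABR1800 is named flk-1, an older name of KDR, and ABR7085 is named VPF, VEGF or VEGF-A, older names of VEGFA. Both were matched to the current symbols through RefSeq synonyms after the probe names had been seen, as was a second VEGFA probe, ABR7080, named VEGF.
ANGPT1: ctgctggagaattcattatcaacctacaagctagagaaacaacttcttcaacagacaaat
ANGPT2: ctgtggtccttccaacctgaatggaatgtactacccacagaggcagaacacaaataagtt
KDR (ABR1800): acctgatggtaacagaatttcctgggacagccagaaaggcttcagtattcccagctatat
VEGFA (ABR7085): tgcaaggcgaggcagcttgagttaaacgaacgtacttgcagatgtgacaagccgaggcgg
Among the 12 probes of these genes, no pair shared a run of more than 9 bases.

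Detection divided the members. EDN1, EDNRA, KDR, ANGPT2, TEK and NOS3 were well above background on all 32 arrays. FLT1 was so on 13 arrays, ANGPT1 on 12 and EDNRB on 1. EDNRB failed the filter on dim probes and was not tested, which left 8 members in each comparison. When the 8 combinations of group and compartment were ordered by mean level for each member, none of the 63 steps between neighbours exceeded the larger SD of the neighbours. Ordering makes such steps small, so this does not compare RB with non-RB or show that the combinations are alike.

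**Figure D1:**
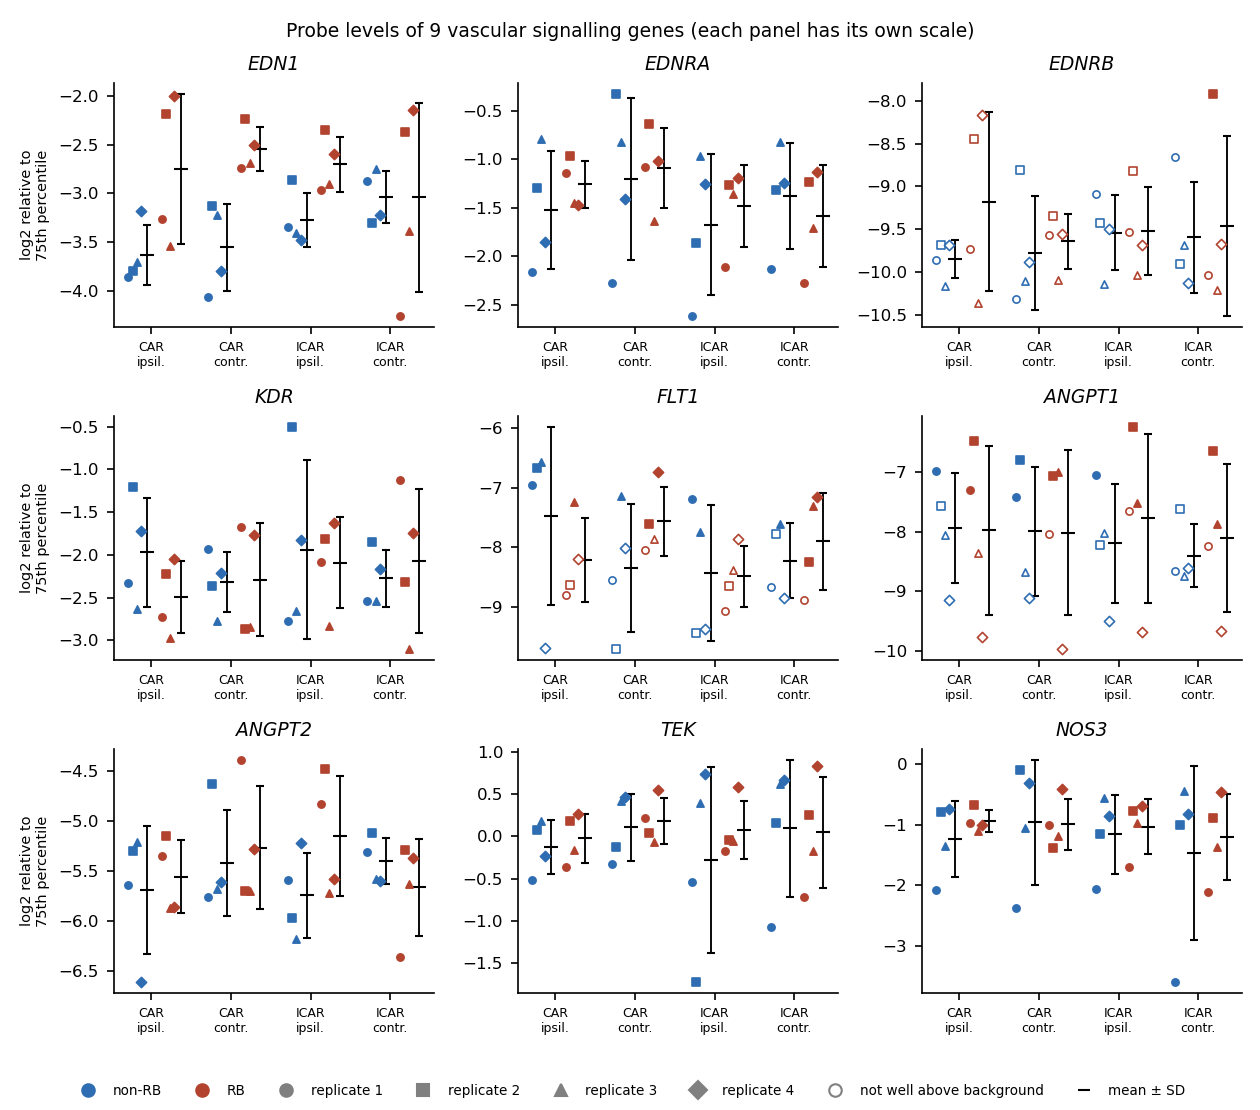
Level of the 9 members with a probe (log2 over the 75th-percentile intensity) in each compartment, for non-RB (blue) and RB (red) cows. Marker shapes give the replicate number, open markers are spots not well above background, and bars are mean ± SD of 4 arrays. EDN1 in CAR contralateral is the only panel position where the groups do not overlap. In that compartment 0.929% of all probes tested were likewise higher in RB without overlap.

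EDN1, the endothelin ligand, was separated between the groups in CAR contralateral. There it was -2.74, -2.24, -2.69 and -2.50 in RB replicates 1 to 4 and -4.06, -3.13, -3.22 and -3.79 in non-RB replicates 1 to 4. Every RB array was above every non-RB array. The means were -2.54 ± 0.23 and -3.55 ± 0.45 (SD, n = 4 each). The difference was 1.01 (SE 0.27, 95% interval 0.39 to 1.62), a 2.01-fold higher level in RB, with an unadjusted p = 0.00479 and an adjusted p of nearly 1 in limma. The exact permutation p was 0.0286. Of all probes tested in this compartment, 0.929% were likewise higher in RB without overlap and 1.2% were higher at an unadjusted p under 0.05, and EDN1 ranked 20 of 13135 by p. In whole tissue, fewer cells of a type and less RNA per cell cannot be told apart.

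In CAR ipsilateral, EDN1 was -3.26, -2.19, -3.54 and -2.003 in RB replicates 1 to 4 and -3.85, -3.79, -3.70 and -3.18 in non-RB replicates 1 to 4. RB replicates 2 and 4 lay above all non-RB arrays, and RB replicates 1 and 3 within the non-RB range. The array of RB replicate 4 had uneven spots (SD of 0.395 among GAPDH probes). The difference was 0.88 (SE 0.38, 95% interval 0.04 to 1.73, unadjusted p = 0.0427, adjusted p of nearly 1 in limma), where 1.44% of probes were higher in RB at an unadjusted p under 0.05. Without RB replicate 4 it was 0.63 (unadjusted p = 0.122), and without RB replicate 2 it was 0.70 (unadjusted p = 0.118).

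In ICAR ipsilateral, EDN1 was -2.96, -2.35, -2.90 and -2.60 in RB replicates 1 to 4 and -3.35, -2.86, -3.41 and -3.48 in non-RB replicates 1 to 4. Of the non-RB arrays, only replicate 2 reached the RB range. The difference was 0.57 (SE 0.23, 95% interval 0.04 to 1.10, unadjusted p = 0.0365, adjusted p = 0.863 in limma), where 2.23% of probes were higher in RB at an unadjusted p under 0.05. With the slide as a block, which compares the groups only within slides 6 and 8, it was 0.35 (unadjusted p = 0.398).

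In ICAR contralateral, EDN1 was -4.25, -2.38, -3.38 and -2.15 in RB replicates 1 to 4 and -2.87, -3.30, -2.75 and -3.22 in non-RB replicates 1 to 4. RB arrays lay on both sides of the non-RB arrays, with an SD of 0.97 against 0.27. The difference was -0.00 with a 95% interval of -1.02 to 1.01, wide enough to hold the values of CAR ipsilateral, CAR contralateral and ICAR ipsilateral. Without RB replicate 1 it was 0.40 (unadjusted p = 0.284).

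**Figure D2:**
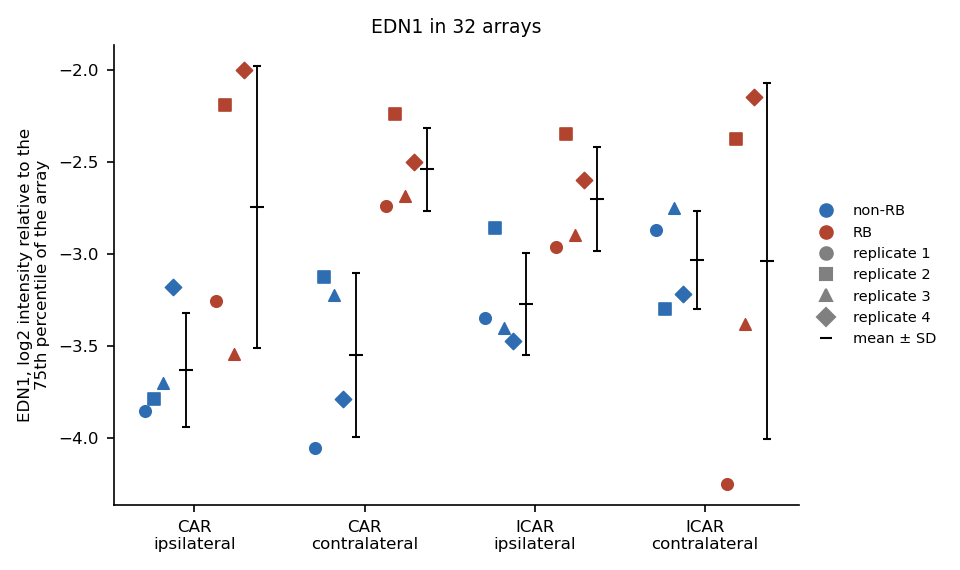
EDN1 level (log2 over the 75th-percentile intensity) on each of 32 arrays by compartment, non-RB in blue and RB in red, with marker shapes for the replicate number and mean ± SD of 4 arrays in black. The RB arrays of CAR contralateral, from -2.74 to -2.24, lie above all non-RB arrays of that compartment, whereas in ICAR contralateral the RB arrays run from -4.25 to -2.15 around the non-RB arrays.

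Being higher in RB at an unadjusted p under 0.05 in at least 3 of the 4 compartments, as EDN1 was, was seen for 18 of 12702 probes (0.142%). The compartments came from the same cows, so passing in several of them is not replication. EDN1 is in the study's own gene lists made from these arrays, so its place is not independent evidence. The mean of the 4 arrays of a cow was -3.30, -2.29, -3.13 and -2.31 in RB replicates 1 to 4 and -3.53, -3.27, -3.27 and -3.42 in non-RB replicates 1 to 4. RB replicates 2 and 4 stood apart from the non-RB cows, and RB replicate 1 fell among them. Over the whole uterus the difference was 0.61 (95% interval 0.04 to 1.19, 1.53-fold, unadjusted p = 0.0389, adjusted p of nearly 1 in limma, exact p = 0.0857), where 1.41% of probes were higher in RB at an unadjusted p under 0.05. Without RB replicate 2 it was 0.46 (unadjusted p = 0.112) and without RB replicate 4 it was 0.47 (unadjusted p = 0.111).

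The EDN1 difference was larger in CAR than in ICAR. Within a cow, the CAR level minus the ICAR level was 0.61, 0.15, 0.03 and 0.12 in RB replicates 1 to 4 and -0.84, -0.38, -0.39 and -0.14 in non-RB replicates 1 to 4. All RB cows had the higher level in CAR and all non-RB cows in ICAR. The RB effect in CAR exceeded that in ICAR by 0.66 (95% interval 0.13 to 1.196, unadjusted p = 0.0202, adjusted p of nearly 1 in limma), with an exact permutation p = 0.0286, and 0.387% of probes were separated in the same direction. Without RB replicate 1 the value was 0.53 (unadjusted p = 0.0633). The RB effect in the ipsilateral horn exceeded that in the contralateral horn by 0.22 (95% interval -0.24 to 0.69).

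Within slides that held both groups, RB minus non-RB for EDN1 in CAR contralateral was 0.72 on slide 6 and 1.32 on slide 8. In ICAR ipsilateral it was 0.81 and -0.10 on these slides, and in ICAR contralateral 0.60 and -0.95. No slide held both groups in CAR ipsilateral, where the difference was 0.82 within scan session 2 and 1.18 within scan session 3. Scan sessions were formed here from the month and year of each scan date. A session may therefore pool several scanner runs. Each slide value rests on a single array of either group.

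The mean level of the 9 endothelial markers ran from -2.56 to -2.30 in RB and from -3.23 to -1.95 in non-RB arrays of CAR contralateral, a difference of 0.17. It differed by 0.18 in CAR ipsilateral, -0.02 in ICAR ipsilateral and -0.11 in ICAR contralateral. Across the 32 arrays, centred on the mean of each group and compartment, EDN1 had r = 0.59 with this mean and 0.08 with that of smooth muscle and pericyte markers. The part of endothelial content in the EDN1 difference was not tested.

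EDNRA, the constrictor receptor, had overlapping groups in all 4 compartments. RB minus non-RB was 0.27 in CAR ipsilateral, 0.11 in CAR contralateral, 0.19 in ICAR ipsilateral and -0.21 in ICAR contralateral. Over the whole uterus it was 0.09 (95% interval -0.59 to 0.77). The extremes were both non-RB cows, replicate 1 with the lowest mean (-2.29) and replicate 3 with the highest (-0.85). EDNRB was well above background only on the array of RB replicate 2 of ICAR contralateral, at -7.92, and no fold is given for it.

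KDR, the main signalling receptor for VEGFA, was -2.72, -2.22, -2.97 and -2.05 in RB replicates 1 to 4 and -2.33, -1.21, -2.63 and -1.72 in non-RB replicates 1 to 4 of CAR ipsilateral by the probe with its current name. The ranges overlapped, and the difference was -0.52 (95% interval -1.33 to 0.28, unadjusted p = 0.180 in limma). Without non-RB replicate 2 it was -0.27. The mean of 8 epithelial markers ran from 0.00 to 0.78 in RB and from 0.74 to 1.40 in non-RB arrays there, a difference of -0.60 (exact permutation p = 0.0571). Its part in the KDR value was not tested. The other compartments gave -0.15 (ICAR ipsilateral), 0.03 (CAR contralateral) and 0.20 (ICAR contralateral). RB replicate 3 was the lowest of the 8 arrays in 3 of 4 compartments.

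The flk-1 probe of KDR gave another picture. In CAR ipsilateral it was -4.86, -4.97, -4.39 and -6.30 in RB replicates 1 to 4 and -5.49, -5.34, -5.68 and -5.52 in non-RB replicates 1 to 4. RB replicates 1 to 3 were above all non-RB arrays and RB replicate 4, an array with uneven spots (SD of 0.395 among GAPDH probes), below them. The difference was 0.38 (95% interval -0.47 to 1.23, unadjusted p = 0.346 in limma), and without RB replicate 4 it was 0.77 (unadjusted p = 0.0159). This probe too stands in the study's gene lists from these arrays. Across the uterus flk-1 gave 0.36 (95% interval -0.27 to 0.99) and the other KDR probe -0.11 (95% interval -0.83 to 0.61). After centring, the pair of probes had r = 0.08 over the 32 arrays, so that a sign for KDR depends on the probe.

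VEGFA, the ligand, was well above background on all 32 arrays by both of its older-name probes, and these had r = 0.70 after centring. In ICAR contralateral, ABR7085 was -5.55, -5.02, -4.67 and -5.60 in RB replicates 1 to 4 and -5.69, -5.71, -6.09 and -5.67 in non-RB replicates 1 to 4. The groups did not overlap, as for 0.67% of probes in the same direction, but the lowest RB and the highest non-RB array lay close together. With normexp, another background correction, the values were of the other sign, -0.24 for this probe and -0.024 for ABR7080. Normexp here adds 50 units to every intensity before scaling, against a median of 82.5 units for ABR7085. The part of this offset in the sign was not tested. Without normexp the difference for ABR7085 was 0.58 (95% interval -0.03 to 1.19, unadjusted p = 0.0609, adjusted p of nearly 1 in limma, exact p = 0.0286). ABR7080 gave 0.40 there (95% interval -0.17 to 0.98) with overlapping groups. Across the uterus the probes gave 0.15 and 0.08.

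**Figure D3:**
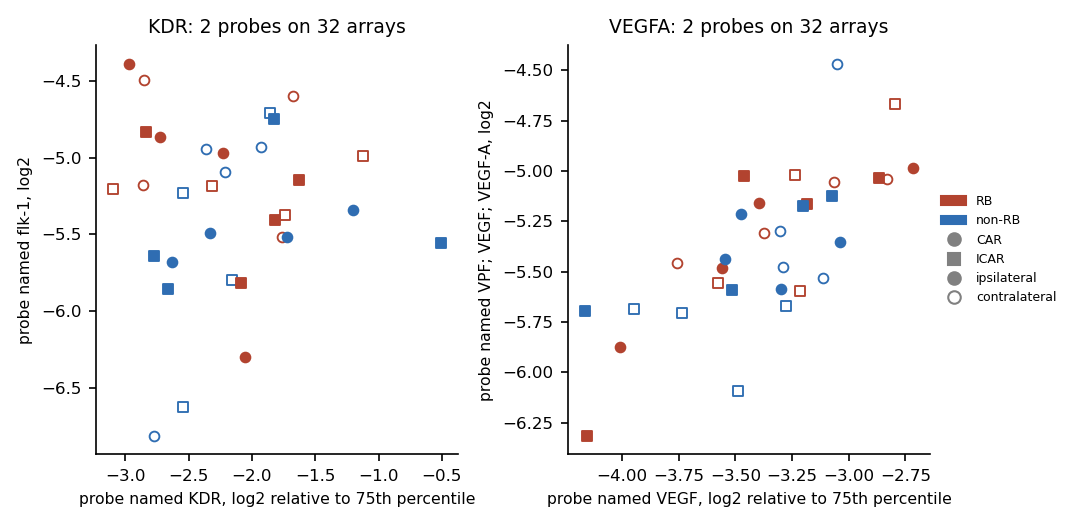
Levels (log2 over the 75th-percentile intensity) of both probes for KDR (left) and for VEGFA (right), with 1 point per array, red for RB and blue for non-RB, circles for CAR, squares for ICAR and open markers for the contralateral horn. The VEGFA probes rise together (r = 0.70 after centring), and the KDR probes do not (r = 0.08).

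FLT1, the high-affinity VEGFA receptor with weak kinase activity, was dim. In CAR ipsilateral it was -8.79, -8.63, -7.24 and -8.19 in RB replicates 1 to 4, of which replicate 3 was well above background, and -6.95, -6.68, -6.57 and -9.69 in non-RB replicates 1 to 4, of which replicates 1 to 3 were. Non-RB replicates 1 to 3 were above all RB arrays and non-RB replicate 4, an array with uneven spots (SD of 0.430 among GAPDH probes), below them. The difference was -0.74 (95% interval -2.22 to 0.74, unadjusted p = 0.292 in limma), and without non-RB replicate 4 it was -1.48 (unadjusted p = 0.00408). In CAR contralateral it was 0.78 (95% interval -0.40 to 1.97), 0.34 without non-RB replicate 2, whose array was on slide 1, and 0.20 with normexp. For the uterus as a whole it was 0.08 (95% interval -0.80 to 0.95).

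Within cows, FLT1 was higher in CAR than in ICAR by 0.56, 0.33, 0.29 and 0.04 in RB replicates 1 to 4 and by 0.18, 0.42, 0.81 and 0.26 in non-RB replicates 1 to 4. All 8 cows had the higher value in CAR, as for 1.54% of probes. The mean was 0.36, with an exact permutation p = 0.00781, the smallest that 8 signs allow. Limma on the 32 arrays gave an unadjusted p = 0.251 and on the 8 within-cow differences an unadjusted p = 0.0106 and an adjusted p = 0.156. With normexp the difference was 0.02, and 19 of the 32 spots were not well above background. The 50 units that normexp adds to every intensity exceed the highest FLT1 intensity of 34.2 units.

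ANGPT1, the stabilising ligand of TEK, differed among cows more than between groups. RB replicate 2 was well above background on all 4 arrays, from -7.05 to -6.24. RB replicate 4 was so on none and was the lowest of the 8 arrays in every compartment, from -9.97 to -9.68. The SD between cows of a group was 1.08, against 0.49 within a cow. Of the arrays of scan session 2, 10 of 12 were well above background, and of session 3, 0 of 11. All arrays of RB replicate 2 were on slide 2 in session 2, and all of RB replicate 4 on slide 6 in session 3. Between RB replicates 2 and 4, cow, slide and session cannot be told apart. Slide 2 also held RB replicate 3, with a cow mean of -7.69 against -6.60 in RB replicate 2. On slide 6, RB replicate 4 minus non-RB replicate 3 was -1.68 in ICAR ipsilateral, -1.30 in CAR contralateral and -0.93 in ICAR contralateral. Neither RB replicate 4 nor non-RB replicate 3 was well above background on any array. The part of the scan session in these levels was not tested. For the uterus as a whole, RB minus non-RB was 0.17 (95% interval -1.23 to 1.56).

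ANGPT2, which can oppose ANGPT1 at TEK, differed most in ICAR ipsilateral, where it was -4.83, -4.48, -5.72 and -5.58 in RB replicates 1 to 4 and -5.59, -5.98, -6.18 and -5.22 in non-RB replicates 1 to 4. The ranges overlapped. The difference was 0.59 (95% interval -0.18 to 1.36, unadjusted p = 0.116, adjusted p = 0.863 in limma). Without RB replicate 2 it was 0.36 (unadjusted p = 0.302), and with normexp 0.25. The other compartments ran from -0.26 to 0.15. The whole-uterus value was 0.15 (95% interval -0.28 to 0.59). In contrast to ANGPT1, the SD between cows of a group was 0.24 and that within a cow 0.49.

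TEK, the angiopoietin receptor, gave RB minus non-RB differences from -0.05 to 0.36 over the compartments and 0.12 over the whole uterus (95% interval -0.53 to 0.77). The value of 0.36, in ICAR ipsilateral, was -0.12 without non-RB replicate 2, whose level there was -1.72. That array had uneven spots (SD of 0.536 among GAPDH probes). RB replicate 4 was the highest of the 8 arrays in 3 of 4 compartments, and non-RB replicate 1 the lowest in 3.

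NOS3, the endothelial nitric oxide synthase, was lowest in a single cow. Non-RB replicate 1 was the lowest of the 8 arrays in all 4 compartments, at -2.08 in CAR ipsilateral, -2.39 in CAR contralateral, -2.07 in ICAR ipsilateral and -3.60 in ICAR contralateral, the last on slide 1. Its mean was -2.53, and the highest mean was -0.64 in RB replicate 4. The RB minus non-RB difference was 0.17 over the whole uterus (95% interval -0.74 to 1.07) and from -0.03 to 0.30 in the compartments.

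**Figure D4:**
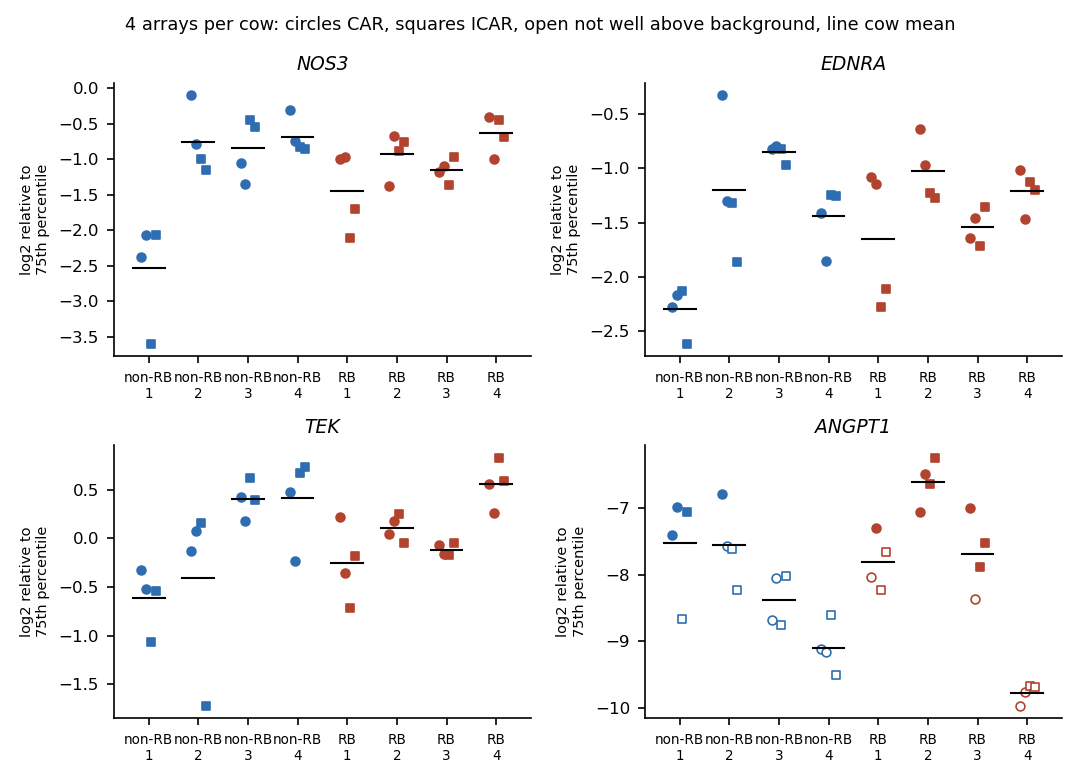
Levels of NOS3, EDNRA, TEK and ANGPT1 (log2 over the 75th-percentile intensity) on the 4 arrays of each cow, circles for CAR and squares for ICAR, open where not well above background, with a line at the mean of the cow. Non-RB replicate 1 has the lowest mean for NOS3 (-2.53), EDNRA (-2.29) and TEK (-0.61), and RB replicate 4 the lowest for ANGPT1 (-9.78).

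EDNRA, TEK and NOS3 varied together. Over the 32 centred arrays r was 0.75 for EDNRA with NOS3, 0.66 for TEK with NOS3 and 0.60 for EDNRA with TEK. EDN1 had r = 0.41 with EDNRA, and ANGPT2 had r = 0.14 with TEK. These points share 8 cows, 8 slides and 4 scan sessions, so the coefficients are descriptions only. NOS3, EDNRA and TEK had r = 0.76, 0.71 and 0.48 with the mean of the endothelial markers. EDNRA had -0.55 with the mean of epithelial markers, 0.58 with stroma markers and 0.50 with smooth muscle and pericyte markers. KDR, by the probe with its current name, had 0.19 with the endothelial and 0.55 with the epithelial mean. The flk-1 probe had 0.09 and 0.21 with these means.

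The genes most like a member in level were sought over the same centred arrays among 3150 probes with a gene symbol. For EDN1 they were GATM (r = 0.742), a creatine synthesis enzyme, and VCAM1 (r = 0.742), an adhesion molecule of activated endothelium. For NOS3 they were TFB1M (r = 0.862), a mitochondrial factor, and THBD (r = 0.851), the endothelial thrombin receptor thrombomodulin. For EDNRA they were a probe named SFD and described as TIMP metallopeptidase inhibitor 3 (r = 0.881) and the tropomyosin TPM1 (r = 0.821). KDR had PPP1R7 (r = 0.826) and SLC3A2 (r = 0.802). TEK had a probe assigned to LHX3 but described as a quiescin (r = 0.847) and PTCD3 (r = 0.834). For ANGPT2 the closest was KIF3C, with a lower r of 0.641.

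None of the 8 members tested was called by limma at an adjusted p under 0.05 in any of the 9 comparisons, nor by the methods' t-test after the same adjustment in the 4 compartments. For the whole uterus that test was run only on cow means, and limma with the 32 arrays taken as independent samples called 60 probes and no member, with an adjusted p = 0.146 for EDN1. At an unadjusted p under 0.05, EDN1 alone of the 8 passed in CAR ipsilateral (3.41% of all probes), ICAR ipsilateral (3.69%), CAR contralateral (1.74%), the whole uterus (2.21%) and the contrast of the RB effect in CAR and ICAR (0.882%). No member passed in ICAR contralateral (1.6%), between CAR and ICAR (16.2%), between horns (1.36%) or for the contrast of the RB effect between horns (5.98%). Between CAR and ICAR and between horns, limma was fitted to the 32 arrays as if independent, without the pairing within the 8 cows. These counts change with the slide or the cow as a block. In CAR contralateral the slide block in limma gave an unadjusted p under 0.05 for 4 members, EDN1, ANGPT1, ANGPT2 and NOS3. There the block compares the groups only within slides 6 and 8, which held 1 RB and 1 non-RB array each, and the other cows drop out. With that block ANGPT1 was -0.96 (unadjusted p = 0.0179 in limma), ANGPT2 0.89 (unadjusted p = 0.0400) and NOS3 1.01 (unadjusted p = 0.0185), against -0.02, 0.15 and -0.03 without it. Between CAR and ICAR, EDNRA passed in limma with the cow as a block (0.26, unadjusted p = 0.0409) and FLT1 on the within-cow differences. Between horns FLT1 passed in limma with the slide block (-0.74, unadjusted p = 0.000445). None of these had an adjusted p under 0.05 in limma. The median RB minus non-RB difference of the 8 members was 0.12 in CAR ipsilateral, 0.27 in ICAR ipsilateral, 0.10 in CAR contralateral and 0.10 in ICAR contralateral. Over all probes it was 0.02, -0.03, 0.00 and 0.02. Adjusted calls were 0% of all probes in every RB comparison and 1.35% between CAR and ICAR.

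**Figure D5:**
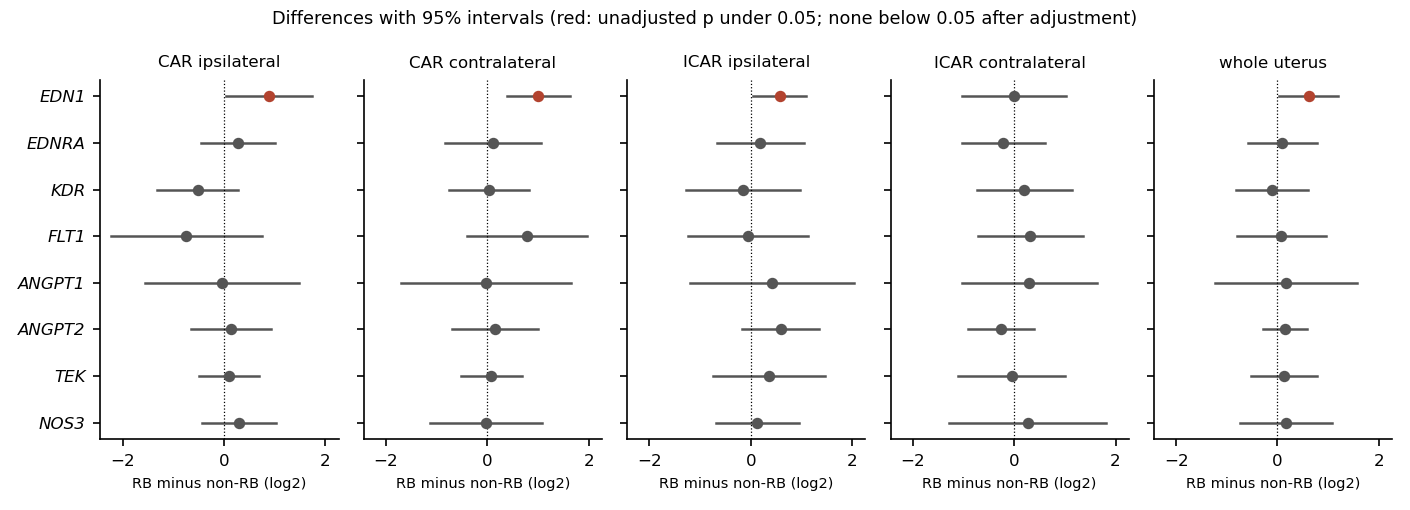
RB minus non-RB difference (log2) of the 8 members tested, with 95% intervals from limma, in each compartment and over the whole uterus. Red points have an unadjusted p under 0.05, which EDN1 has in 3 compartments and over the whole uterus, and all other intervals include 0.

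Of 81 probes of other vascular genes, 75 to 77 were tested in a compartment, and none was called by limma between RB and non-RB. At an unadjusted p under 0.05, 1 was higher and 1 lower in RB in CAR ipsilateral, 1 and 3 in ICAR ipsilateral, 2 and 1 in CAR contralateral, and 0 and 3 in ICAR contralateral. These are 2.67, 5.26, 3.90 and 3.95% of those tested, against 3.41, 3.69, 1.74 and 1.6% of all probes. Their median difference was -0.02, -0.06, -0.06 and 0.00 in these compartments.

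In the endothelin system, ECE2, an endothelin-converting enzyme, was -0.97 ± 0.49 in RB and -0.10 ± 0.57 in non-RB arrays of ICAR ipsilateral, a difference of -0.87 (unadjusted p = 0.0316 in limma). Its RB effect in the ipsilateral minus that in the contralateral horn was -0.48 without overlap of the cows, as for 3.95% of probes in either direction. In the nitric oxide pathway, GUCY1A3, a subunit of soluble guanylate cyclase, had a difference of 0.94 in ICAR ipsilateral (unadjusted p = 0.0481), and of 0.57 without non-RB replicate 2. Also there, the thromboxane receptor TBXA2R had -0.66 and heme oxygenase HMOX1 had -0.54, both without overlap, as for 2.23% of probes in either direction.

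In the hypoxia response, the glucose transporter SLC2A1 was 2.34 ± 0.23 in RB and 3.38 ± 0.32 in non-RB arrays of ICAR contralateral, a difference of -1.04 without overlap, as for 1.48% of probes in either direction (unadjusted p = 0.00209, adjusted p of nearly 1 in limma). SLC2A1 is in the study's own gene lists for this compartment, made from these arrays, so its place is not independent evidence. HIF1A, the oxygen-regulated transcription factor subunit, had -0.66 and the plasminogen activator PLAT -0.69 in the same compartment. In CAR contralateral, the HIF1A partner ARNT had 0.90, the Notch target HEY1 had 1.14 and the plasminogen activator PLAU had -0.73 (unadjusted p = 0.0431, 0.0314 and 0.0328 in limma). With the slide as a block these were 0.31, 0.43 and -0.26 (unadjusted p = 0.211, 0.172 and 0.425). That block compares the groups only within slides 6 and 8. Without non-RB replicate 2, whose array was on slide 1, ARNT was 0.52 and HEY1 0.66. For the RB effect in CAR against ICAR, PDGFB, the ligand that recruits pericytes, had -0.64, and 0.23 with normexp.

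Among matrix and angiogenesis inhibitor genes, CHGA, the precursor of vasostatin, was 1.44 ± 0.71 in RB and 3.83 ± 1.71 in non-RB arrays of CAR ipsilateral. The difference was -2.39 (unadjusted p = 0.00908, adjusted p of nearly 1 in limma) with overlapping groups, and CHGA is likewise in the study's gene lists. COL4A3, a basement membrane collagen, had 1.21 there (unadjusted p = 0.0491). Of the 12 genes of these lists named for a compartment, SLC2A1 and CHGA had an unadjusted p under 0.05 in all 8 fits that left out a replicate, and the others in 2 to 5 of 8.

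Between CAR and ICAR, 12 of the 76 other vascular probes tested were higher in CAR and 5 lower at an unadjusted p under 0.05, which is 22.4% against 16.2% of all probes. SPARC, a matrix protein, had a difference of 0.47 with an adjusted p = 0.0716 in limma, and 0.0456 with the cow as a block. AGTR1, the angiotensin receptor, had 0.74, with an adjusted p = 0.107 and 0.0245 with the block. GUCY1B3, the other guanylate cyclase subunit, had -0.39 and lactate dehydrogenase LDHA -0.57, with adjusted p = 0.0812 and 0.107 in limma and 0.0474 and 0.0423 with the block. With the cow as a block 1086 probes were called in this comparison, against 174 without, and no member was among them. On the 8 within-cow differences no probe was called, and AGTR1, SPARC, GUCY1B3 and LDHA had adjusted p = 0.126, 0.156, 0.151 and 0.105 in limma.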

How the data were processed

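Total RNA was labelled with Cy3 and hybridised to single-colour arrays. The authors deposited scanner files from Agilent Feature Extraction 9.5, whose processed signal is a background-subtracted intensity, and a table of log2 values. Control spots and outlier spots were left out. The log2 processed signal minus that of the 75th percentile was fitted with limma 3.58.1 in R 4.3.3. For CAR against ICAR and for the horns, all 32 arrays entered a single fit without a term for the cow. For these comparisons the pairing within cows was used only in the exact tests and in some alternatives. Probes well above background on at least 2 arrays of a compartment, or 8 of 32, were tested, with Benjamini-Hochberg adjustment at 0.05. Exact permutation tests were two-sided and enumerated in Python 3.11.15 with numpy 2.4.6. The t quantiles of the intervals came from scipy 1.17.1, and scripts were tested on simulated data. Alternatives were other filters, quantile normalization, normexp (offset 50), the deposited table, the methods' t-test, blocks for slide, scan session and replicate, and leaving out replicates or slide 1. The genome build is not given in the sources used here.

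Members and lists were chosen with earlier results of these data known. Named other vascular genes were the up to 5 with the smallest unadjusted p under 0.05 where none was called. Genes most like a member were the 2 probes with the highest r. Some genes that these rules name are not reported here. Where replicates are not separate animals, p-values measure only the spread between these samples. Same-numbered arrays of a group deviated together across compartments (mean r = 0.413 in RB and 0.382 in non-RB), which was read as the same cow. RB replicates 2, 3 and 4 and non-RB replicate 4 each had all their arrays on a single slide. A shared cow and a shared slide cannot be told apart there.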

Additional observations from a re-analysis of the deposited data

Results flagged for a closer look

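EDN1 had an RB effect in CAR that exceeded the effect in ICAR by 0.66 (exact permutation p = 0.0286), the smallest p that 4 against 4 cows allow, and the adjusted p was nearly 1 in limma.

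In 5 of 87 groups of 4 arrays, a single array lay far from the other 3, and chance gives about 1 in 20. ANGPT2 was -4.63 in non-RB replicate 2 of CAR contralateral, an array of slide 1, against -5.76 to -5.61 in the others. FLT1 was -9.69 in non-RB replicate 4 of CAR ipsilateral, where the other 3 ran from -6.95 to -6.57. The array of that replicate had uneven spots (SD of 0.430 among GAPDH probes). KDR by the flk-1 probe was -6.81 in non-RB replicate 3 of CAR contralateral, with the rest from -5.09 to -4.93. VEGFA by ABR7085 was -6.09 in non-RB replicate 3 of ICAR contralateral, against -5.71 to -5.67, and -6.31 in RB replicate 1 of ICAR ipsilateral, against -5.17 to -5.03.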

How the results depend on the processing

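No member was called at an adjusted p under 0.05 under any alternative run. Of 674 values for single probes under alternatives other than leaving out a replicate, 33 changed sign, and 58 of 564 did so when a replicate was left out. The cause was not tested. The small number of arrays limits the precision, and FLT1 and ANGPT1 lie near background.

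With normexp, differences of the other sign were -0.050 for ANGPT2 in CAR ipsilateral, -0.065 for ANGPT1 in ICAR ipsilateral, 0.11 for ANGPT1 in CAR contralateral and 0.23 for PDGFB in the RB effect of CAR against ICAR. In ICAR contralateral they were -0.68 for FLT1, -0.64 for ANGPT1, -0.088 for NOS3, -0.24 for VEGFA (ABR7085) and -0.024 for VEGFA (ABR7080). Over the whole uterus they were -0.27 for FLT1, -0.19 for ANGPT1, -0.065 for ANGPT2, -0.065 for ABR7085 and -0.032 for ABR7080. Quantile normalization gave 0.14 for FLT1 in ICAR ipsilateral, -0.059 for KDR and 0.0092 for ANGPT1 in CAR contralateral. The session block gave -0.12 for ANGPT1 in ICAR ipsilateral, 0.75 for NOS3 in CAR contralateral, and 0.070 for EDN1, -0.84 for ANGPT1 and -0.37 for NOS3 in ICAR contralateral. In ICAR ipsilateral, CAR contralateral and ICAR contralateral, the slide block compared RB with non-RB only within slides 6 and 8. The slide block gave -0.24 for EDNRA, 0.12 for FLT1, -0.55 for ANGPT1 and -0.34 for NOS3 in ICAR ipsilateral, and 1.01 for NOS3 in CAR contralateral. In ICAR contralateral it gave -0.33 for FLT1, -0.78 for ANGPT1 and -0.56 for NOS3, and 0.12 for EDN1 between horns. Without slide 1, an alternative chosen after seeing the data, FLT1 was -0.10 over the whole uterus and EDN1 0.0066 between horns.

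Leaving out each replicate gave these ranges where a sign changed. In CAR ipsilateral they were -0.54 to 0.56 for ANGPT1, -0.17 to 0.29 for ANGPT2 and -0.027 to 0.22 for TEK. In ICAR ipsilateral they were -0.12 to 0.42 for EDNRA, -0.43 to 0.33 for KDR, -0.39 to 0.14 for FLT1, -0.090 to 1.06 for ANGPT1, -0.12 to 0.70 for TEK and -0.18 to 0.35 for NOS3. In CAR contralateral they were -0.24 to 0.41 for EDNRA, -0.17 to 0.22 for KDR, -0.39 to 0.63 for ANGPT1, -0.14 to 0.42 for ANGPT2, -0.069 to 0.20 for TEK and -0.50 to 0.26 for NOS3. In ICAR contralateral they were -0.30 to 0.40 for EDN1, -0.46 to 0.020 for EDNRA, -0.11 to 0.55 for KDR, -0.44 to 0.21 for TEK and -0.45 to 0.61 for NOS3. Over the whole uterus they were -0.19 to 0.29 for EDNRA, -0.28 to 0.12 for KDR, -0.21 to 0.36 for FLT1, -0.29 to 0.77 for ANGPT1, -0.064 to 0.28 for TEK, -0.28 to 0.34 for NOS3 and -0.047 to 0.27 for ABR7080. For EDN1 they were -0.21 to 0.00065 between CAR and ICAR and -0.11 to 0.027 between horns.

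The 174 probes called between CAR and ICAR became 64 with normexp, 1086 with the cow as replicate block, 0 on the 8 within-cow differences, 0 without slide 1 and 0 to 915 when a cow was left out. Between horns 1 probe was called with the replicate block and 1 with the slide block. In the whole uterus 60 were called when the 32 arrays were taken as independent samples, and in ICAR contralateral 0 to 1 when a replicate was left out. Arrays of RB and non-RB cows with the same number are different cows, and their deviations had a mean r of 0.136 (over 0.1 in 11 of 16 pairs). With the number as a replicate block EDN1 was 0.88 in CAR ipsilateral (unadjusted p = 0.0215 in limma), 0.57 in ICAR ipsilateral (0.0291), 1.01 in CAR contralateral (0.00803), -0.00 in ICAR contralateral (0.994) and 0.61 over the whole uterus (0.0310), and the block called no member.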
